A study of Mus musculus with 6 samples.

Results

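The epithelial sodium channel genes and the best known regulators of the channel form a set of 6 genes: the subunit genes Scnn1a, Scnn1b and Scnn1g, and the regulators Prss8, Nedd4l and Sgk1. They were chosen by name with results of the knockout and control comparison in view, so their differences between the groups are given as a description, with no test. All 6 were found among the 19618 genes listed, and all 6 passed the filter on low counts with which 15422 genes were tested.

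RNA was sequenced from keratinocytes, the principal epidermal cell type, of the tail skin of mice aged 4 months. The knockout group had 3 libraries from mice with the K14cre transgene and homozygous for a floxed Gpr161 allele. Keratin 14 is a keratin of basal keratinocytes, and its promoter drives Cre in epidermis and hair follicle epithelium. The control group had 3 libraries from mice labelled without K14cre, of which 1 was homozygous and the others heterozygous for the floxed allele. Only the knockout group carried Cre, so Cre itself and the loss of Gpr161 cannot be told apart. Strain and sex are not given in the sources used here, and nothing states that each library came from a separate mouse. Standard errors and p-values therefore refer to these libraries and not to mice. In edgeR they rest on a spread between libraries that is moderated across genes. Column names give the group but not the sample, so libraries go by the tags found there. Where 3 knockout values are listed they follow the order DE679, DE685 and DE688, and 3 control values the order DE680, DE684 and DE689.

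The channel is built from an alpha, a beta and a gamma subunit, encoded by Scnn1a, Scnn1b and Scnn1g, and lets sodium enter epithelial cells across the apical membrane. In the kidney and lung it sets salt and fluid balance, and mouse epidermis that lacks the alpha subunit is known to form an abnormal barrier. Prostasin, the product of Prss8, is a membrane-anchored protease that promotes channel activation. The ubiquitin ligase encoded by Nedd4l binds the subunits and removes them from the membrane, and the kinase encoded by Sgk1 phosphorylates that ligase and weakens the binding.

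The libraries held 17157864 to 25344399 estimated counts. Gpr161, the targeted gene, had 26.8, 33.6 and 25.9 CPM in the knockout libraries and 30.2, 32.2 and 31.9 CPM in the control libraries (CPM, counts scaled to a common library total, with TMM scaling for composition), so the whole-gene count does not check the labels, and each direction here is that of the libraries labelled knockout over those labelled control. The basal keratinocyte keratins Krt5 and Krt14 had means of 14815 ± 905 and 10403 ± 977 CPM in the knockout and 12799 ± 1393 and 10194 ± 1190 CPM in the control (n = 3 each, SD), so markers of the labelled cell type were abundant in both groups. The Hedgehog target genes Gli1 and Ptch1, which Gpr161 is known to restrain, were higher in the knockout libraries, with means of 69.4 ± 4.42 against 9.15 ± 0.857 CPM for Gli1 and 111 ± 14.01 against 37.1 ± 5.35 CPM for Ptch1 (n = 3 each, SD; edgeR adjusted p 1.77e-05 and 0.00228). Y-linked transcripts were present in DE685 and DE684, 1 library of each group. Each knockout library shares adjacent tag numbers with 1 control library. A fit with these 3 pairs as a block, added after the data were seen, is given where it changed a call. DE684 and DE685 form 1 of these pairs, so the block also takes up the difference in Y-linked transcripts. No source used here says what adjacent tags mean.

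The promoters of Scnn1g and Scnn1b are shown because these neighbouring genes were the members with the largest differences. Both lie on the plus strand of chromosome 7, and each window, taken from RefSeq (GRCm38.p6), runs from 250 bases before to 50 bases after the annotated start. Capitals mark the GC box, a motif bound by Sp1-type factors and spelled GGGCGG, on either strand.
Scnn1g, chr7:121734229-121734528, plus strand: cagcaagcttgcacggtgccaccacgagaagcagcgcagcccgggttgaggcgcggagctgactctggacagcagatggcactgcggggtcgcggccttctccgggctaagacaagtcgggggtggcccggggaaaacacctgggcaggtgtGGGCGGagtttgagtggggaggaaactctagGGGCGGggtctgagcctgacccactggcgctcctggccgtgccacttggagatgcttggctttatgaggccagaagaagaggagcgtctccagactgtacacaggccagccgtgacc
Scnn1b, chr7:121864788-121865087, plus strand: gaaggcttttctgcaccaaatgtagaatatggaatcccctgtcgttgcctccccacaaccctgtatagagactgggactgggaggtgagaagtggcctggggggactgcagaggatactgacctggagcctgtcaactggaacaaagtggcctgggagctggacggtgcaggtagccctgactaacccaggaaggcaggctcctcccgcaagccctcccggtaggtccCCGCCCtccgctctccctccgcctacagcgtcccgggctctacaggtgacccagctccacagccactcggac

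The Scnn1g window held 2 GC boxes, at -98 and -67 from the start, and the Scnn1b window held 1, at -22. Of 32851 RefSeq promoter windows of the same 300 bases, chromosome 18 left out, 35.7% held a GC box on either strand. Other motifs searched on both strands were GACCACCCA, the consensus site of the Gli factors of Hedgehog signalling (0.253% of windows), TGANTCA, the AP-1 site (7.81%), and TGTTCT, the core of the glucocorticoid response element (19% of windows). These letters were not found in the Scnn1g or Scnn1b window, and none of the motifs overlapped another there. Sgk1, a gene known to respond to corticosteroids, was the only other member among these windows, which leave out chromosome 18, where Nedd4l lies. It had 6 annotated start windows, of which 3 held TGTTCT and 2 held a GC box. A match describes these letters only.

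Scnn1b and Scnn1g were several-fold higher in the knockout libraries, while Scnn1a was slightly lower, so the 3 subunit genes did not move as a unit. Scnn1b (chromosome 7, 121865038 to 121918514, plus strand, GRCm38), which encodes the beta subunit, had 12.5, 14.6 and 17.1 CPM in the knockout libraries and 2.26, 2.50 and 2.90 CPM in the control libraries. Every knockout library was above every control library, and the lowest knockout value was 4.31 times the highest control value. These levels rest on 294, 253 and 439 counts in the knockout libraries and on 51, 57 and 73 counts in the control libraries. The means were 14.7 ± 2.31 and 2.55 ± 0.320 CPM (n = 3 each, SD), a log2 fold change of 2.52 (SE 0.17) or 5.75-fold, which ranked 34 from the top among 15422 genes. In bulk RNA a different mix of cells and a different amount of RNA per cell cannot be told apart. Summed hair follicle stem cell markers also lay higher in the knockout, at 432 to 514 against 314 to 326 CPM, though Cd34 and Tbx1 among them did not.

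Scnn1g (chromosome 7, 121734479 to 121768475, plus strand), the gene of the gamma subunit, had 7.84, 9.82 and 10.4 CPM in the knockout libraries and 2.71, 3.20 and 2.38 CPM in the control libraries. The groups did not overlap here either, and DE679 was the lowest and DE688 the highest knockout library for both genes. Counts behind these levels were 185, 170 and 267 in the knockout libraries and 61, 73 and 60 in the control libraries. The means were 9.35 ± 1.33 and 2.76 ± 0.414 CPM (n = 3 each, SD), a log2 fold change of 1.76 (SE 0.19) or 3.38-fold, ranked 97 from the top.

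Scnn1a (chromosome 6, 125320659 to 125344943, plus strand), the gene of the alpha subunit that the pore requires, had 69.8, 69.5 and 65.5 CPM in the knockout libraries and 81.4, 81.2 and 74.8 CPM in the control libraries. Here the knockout libraries were the lower ones, again without overlap. The means were 68.3 ± 2.37 and 79.1 ± 3.75 CPM (n = 3 each, SD), a log2 fold change of -0.21 (SE 0.06). DE688, the highest knockout library for Scnn1b and Scnn1g, was the lowest of all 6 for Scnn1a. No exon of the 3 subunit genes overlaps an exon of another gene in the GENCODE M21 annotation.

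**Figure D1:**
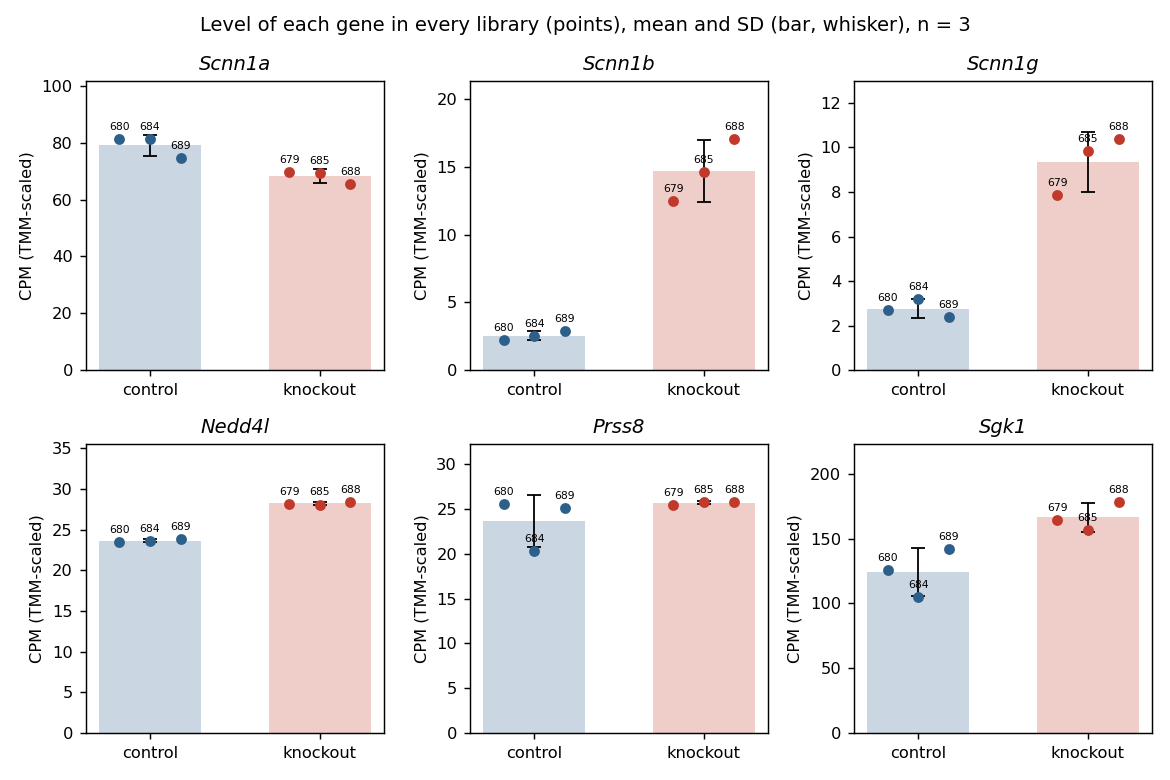
Level of each of the 6 genes in TMM-scaled CPM (vertical axes, from 0) in 3 control and 3 knockout libraries; points are libraries with their tag numbers, bars are group means and whiskers are SD. Scnn1b and Scnn1g sit far higher in the knockout, Scnn1a slightly lower, and Prss8 overlaps between the groups.

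Scaled per length, the balance between the subunits differed between the groups. As CPM per kilobase of merged exons, Scnn1a stood at 19.1 ± 0.907 in the control, where Scnn1b was at 0.970 ± 0.121 and Scnn1g at 0.924 ± 0.138 (n = 3 each, SD). The ranges of Scnn1b and Scnn1g overlapped in the control, so these 2 levels did not differ beyond their spread. In the knockout the levels per kilobase were 16.5 ± 0.574 for Scnn1a, 5.59 ± 0.876 for Scnn1b and 3.13 ± 0.446 for Scnn1g, and no ranges overlapped.

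The level of Scnn1b per kilobase, relative to that of Scnn1a, was 0.280, 0.330 and 0.409 in the knockout libraries, against 0.0436, 0.0484 and 0.0608 in the control libraries. The same ratio for Scnn1g was 0.155, 0.195 and 0.219 in the knockout libraries, against 0.0459, 0.0545 and 0.0440 in the control libraries. Both subunits thus stood closer to the alpha subunit in each knockout library than in any control library, though Scnn1a RNA remained the most abundant of the 3 everywhere. The ratio of Scnn1b to Scnn1g was 1.81, 1.69 and 1.87 in the knockout libraries and 0.950, 0.887 and 1.38 in the control libraries, so the beta gene differed between the groups by more than the gamma gene.

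As shares of the summed per-length level of the 3 genes, Scnn1b made up 22.1% ± 2.82 in the knockout and 4.63% ± 0.778 in the control (n = 3 each, SD). Scnn1g made up 12.4% ± 1.37 and 4.38% ± 0.502. The share of Scnn1a was 65.6% ± 4.11 and 91.0% ± 0.687. The sum itself was 25.2 ± 0.862 CPM per kilobase in the knockout and 21.0 ± 0.911 in the control, 1.20 times higher, so the balance of subunits differed more than their total.

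**Figure D2:**
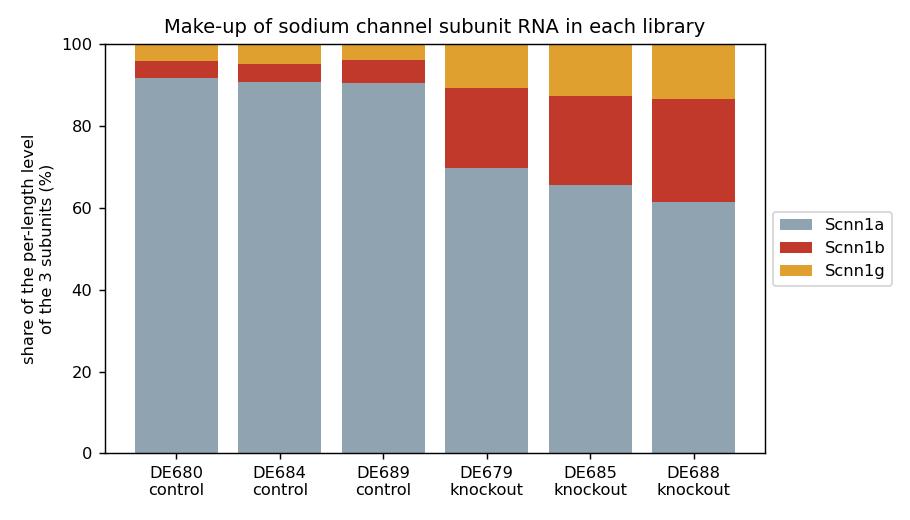
Share of each subunit gene (vertical axis, percent) in the summed per-length level of Scnn1a, Scnn1b and Scnn1g, one bar for each of 3 control and 3 knockout libraries. Scnn1a holds 90.5% to 91.8% of the bar in the control libraries and 61.4% to 69.7% in the knockout libraries.

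Of the regulators, Sgk1 and Nedd4l were modestly higher in the knockout libraries and Prss8 overlapped between the groups. Sgk1 (chromosome 10, 21882184 to 21999903, plus strand) had 165, 157 and 179 CPM in the knockout libraries and 126, 105 and 142 CPM in the control libraries. The groups did not overlap, but the gap between DE685 and DE689 was smaller than the spread within the control. The means were 167 ± 11.2 and 124 ± 18.4 CPM (n = 3 each, SD), a log2 fold change of 0.42 (SE 0.11). Sgk1 is also induced quickly by stress, and of 12 dissociation stress genes tested, such as Fos and Hspa1a, 0 passed the threshold in edgeR (1 at an unadjusted p under 0.05; Socs3 passed with the tag pairs as a block), with sums of 1261 to 1505 CPM in the knockout and 1138 to 1547 CPM in the control. Of these 12 genes, 9 had positive and 3 had negative log2 fold changes, with a list median of 0.231 against -0.0036 over all genes tested. Hspa1b was the largest gene in the sums, with means of 554 and 553 CPM in the knockout and control. The part of the stress genes in the Sgk1 difference was not tested.

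Nedd4l (chromosome 18) had 28.2, 28.1 and 28.4 CPM in the knockout libraries and 23.5, 23.6 and 23.8 CPM in the control libraries. The values were tight within each group and did not overlap, with a log2 fold change of 0.26 (SE 0.07). Exons of Nedd4l share 277 bases with those of the antisense gene A330084C13Rik, which had 10 to 25 counts per library, and whether counting used strand is not given in the sources used here. Prss8 (chromosome 7, 127925716 to 127930104, minus strand) had 25.5, 25.8 and 25.8 CPM in the knockout libraries and 25.6, 20.3 and 25.1 CPM in the control libraries. DE684 was the low library, and the log2 fold change of 0.12 (SE 0.10) was 0.02 without it. Exons of Prss8 share 122 bases with those of Kat8 on the opposite strand, so a small part of its count is uncertain.

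Per kilobase of merged exons, Sgk1 was the highest of the 6 in both groups, at 34.0 ± 2.28 in the knockout and 25.3 ± 3.76 in the control (n = 3 each, SD), followed by Scnn1a and then Prss8 at 13.9 ± 0.0983 and 12.8 ± 1.57. Nedd4l was lowest in the knockout, at 1.60 ± 0.0107, but stood above Scnn1b and Scnn1g in the control, at 1.34 ± 0.00944. Its merged exons span 17659 bases over many isoforms, which lowers its level on this scale.

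In the edgeR quasi-likelihood fit, 2 of the 6 members, Scnn1b and Scnn1g, had a Benjamini-Hochberg adjusted p under 0.05, where 1.6% of all 15422 genes tested did. The share of all genes that passed and were higher was 1.24%, and 0.357% passed and were lower. No overlap between the groups was seen for 5 of the 6 members, 4 higher and 1 lower, against 25.6% of all genes, 12.8% in each direction. With the tag pairs as a block, 3 members passed, Sgk1 added, where 4.56% of all genes did, 3.02% higher and 1.55% lower. Since this contrast was in view when the members were chosen, nothing is read from these counts. The median log2 fold change was 0.34 over the 6 members and -0.0036 over all genes tested.

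Scnn1g and Scnn1b are neighbouring protein-coding genes with 96562 bases between them, which hold only the annotated gene Gm44740, so the genes around them were examined, a choice made after their values were seen. Within 500 kb on either side, 12 other genes were tested, with a median log2 fold change of 0.0 and a range of -0.49 to 0.58. Both ends of this range were genes at low levels. These were Prkcb, with means of 1.59 and 2.26 CPM in the knockout and control, and 1700069B07Rik, with 0.554 and 0.372 CPM. Only Gga2, which encodes a Golgi adaptor of clathrin trafficking and is named after its value was seen, passed the threshold, where 1.6% of all genes tested did. Its means were 125 ± 7.47 against 91.6 ± 7.20 CPM (n = 3 each, SD), a log2 fold change of 0.45 (edgeR adjusted p 0.037, SE 0.08). Cog7, a Golgi tethering subunit whose gene overlaps Scnn1b on the opposite strand without sharing exon bases, had 49.05 ± 2.32 and 48.3 ± 0.825 CPM, a log2 fold change of 0.02 (edgeR adjusted p 0.885, SE 0.06). Usp31, a deubiquitinase gene upstream of Scnn1g, had a log2 fold change of 0.10 (edgeR adjusted p 0.685, SE 0.12).

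**Figure D3:**
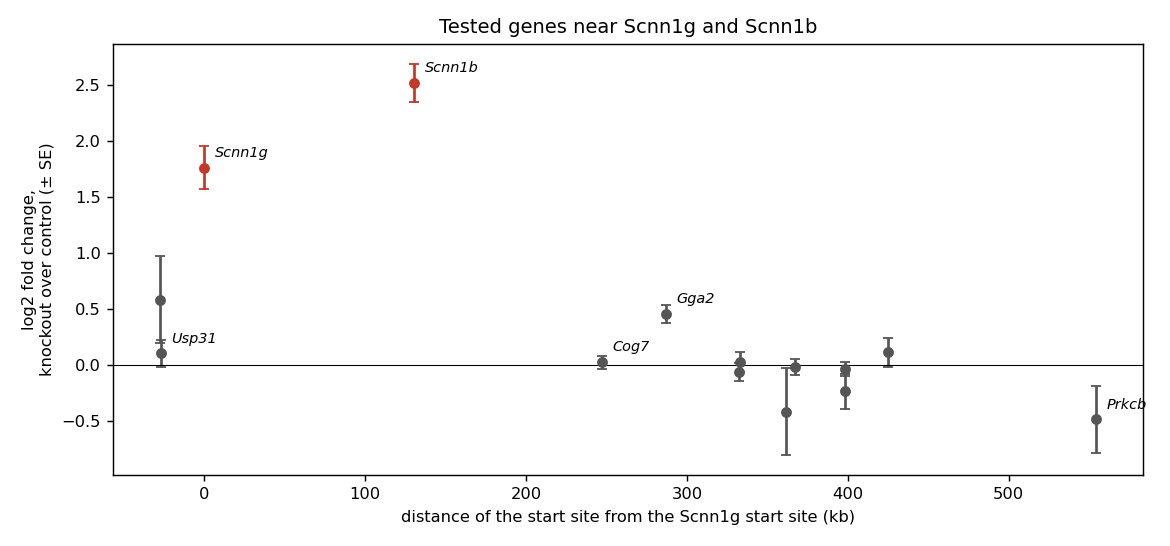
Log2 fold change, knockout over control, with SE (vertical axis) of each tested gene near Scnn1g and Scnn1b against the distance of its start site from that of Scnn1g in kb (horizontal axis). Scnn1g at 1.76 and Scnn1b at 2.52 stand above the 12 other genes, which lie between -0.49 and 0.58.

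Other genes of channel control were taken from 6 lists holding 77 genes, of which 70 were tested. Only Clca3a2 passed in the edgeR fit, where 1.6% of all genes tested did. The median log2 fold change over the 70 genes was -0.001, with 35 above and 35 below 0. At an unadjusted p under 0.05 there were 9 higher and 7 lower genes, and 19.0% of all 15422 genes, 9.9% higher and 9.1% lower, were under that value, which is the background for each unadjusted count here. With the tag pairs as a block 4.56% of all genes tested passed, and so did 3 of the 70. These were Clca3a2, Fkbp5 and the ubiquitin ligase gene Wwp1, the last of which was lower. Neither count is read as a result about these lists. Clca3a2 (a member of the chloride channel accessory family, chromosome 3) rose, with 122, 100.4 and 104 CPM in the knockout libraries and 46.9, 55.7 and 45.7 CPM in the control libraries. The groups were well apart, with a log2 fold change of 1.14 (edgeR adjusted p 0.00352, SE 0.10). One of its exons overlaps that of the antisense gene Gm43240.

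Among channel-activating proteases and their inhibitors, 0 of 14 tested genes passed in edgeR (2 at an unadjusted p under 0.05, both higher; list median 0.047). St14, whose product matriptase acts in one cascade with prostasin, had 88.4 ± 4.19 CPM in the knockout and 77.4 ± 5.24 in the control (n = 3 each, SD), a log2 fold change of 0.19 (edgeR adjusted p 0.202, SE 0.07). Furin, the convertase that cleaves the alpha and gamma subunits, had a log2 fold change of 0.07 (edgeR adjusted p 0.638, SE 0.07). The matriptase and prostasin inhibitors Spint1 and Spint2 had -0.03 and 0.02 (SE 0.06 each, edgeR adjusted p 0.831 and 0.876).

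The list of ubiquitin ligases, adaptors, deubiquitinases and 14-3-3 proteins had 0 of 14 tested genes past the threshold in edgeR (2 higher and 4 lower at an unadjusted p under 0.05; list median -0.049). Nedd4, the close relative of Nedd4l, was far more abundant than it, at 667 ± 22.6 and 618 ± 20.6 CPM, with a log2 fold change of 0.11 (edgeR adjusted p 0.351, SE 0.06). The deubiquitinase Usp2 and the ligase adaptor Ndfip1 had -0.13 and -0.07 (SE 0.10 and 0.07, edgeR adjusted p 0.508 and 0.616). Of the SGK, PI3K-mTORC2 and WNK kinases, 0 of 15 tested genes passed in edgeR (0 higher and 2 lower at an unadjusted p under 0.05; list median -0.08). Sgk3, the relative of Sgk1, had 39.6 ± 1.05 and 44.9 ± 3.83 CPM, a log2 fold change of -0.18 (edgeR adjusted p 0.271, SE 0.08). Sgk2 had no value here.

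Corticosteroid receptors, enzymes and response genes are the hormonal arm of this control. In that list 0 of 11 tested genes passed in edgeR (3 higher and 0 lower at an unadjusted p under 0.05; list median 0.125). Nr3c2, the mineralocorticoid receptor that binds aldosterone, had 7.63, 9.94 and 6.65 CPM in the knockout libraries and 3.50, 3.73 and 5.12 CPM in the control libraries. All knockout values were above the control values, but the log2 fold change of 0.96 (SE 0.22) had an edgeR adjusted p of 0.0858. Fkbp5, a glucocorticoid-induced chaperone, varied widely, with 162, 245 and 143 CPM in the knockout libraries and 54.3, 73.7 and 120.3 in the control libraries, a log2 fold change of 1.14 (edgeR adjusted p 0.112, SE 0.30). With the tag pairs as a block it was 1.19 (edgeR adjusted p 0.0457, SE 0.26).

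Nr3c1, the glucocorticoid receptor, had 206 ± 8.94 and 225 ± 28.9 CPM (n = 3 each, SD), a log2 fold change of -0.13 (edgeR adjusted p 0.504, SE 0.09). Tsc22d3, a corticosteroid-induced regulator of the channel, had -0.15 (edgeR adjusted p 0.782, SE 0.25). Hsd11b1, which reactivates glucocorticoids, had about 1 CPM and a log2 fold change of -0.46 (edgeR adjusted p 0.780, SE 0.74), and Hsd11b2, which inactivates them, was too low to test, with means of 0.212 and 0.174 CPM in the knockout and control.

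Of other sodium transport and osmotic genes, 1 of 14 tested genes passed in edgeR, Clca3a2 as given above (list median 0.06). Atp1b1, a beta subunit gene of the sodium pump, had a log2 fold change of 0.17 (edgeR adjusted p 0.433, SE 0.11). Among the acid-sensing channels, which belong to the same superfamily as the sodium channel, Asic1 and Asic2 had 0.21 and 0.07 (SE 0.22 and 0.41, edgeR adjusted p 0.646 and 0.945), both at low levels. Asic3 was too low to test, and Asic4 and Asic5 had no value here.

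**Figure D4:**
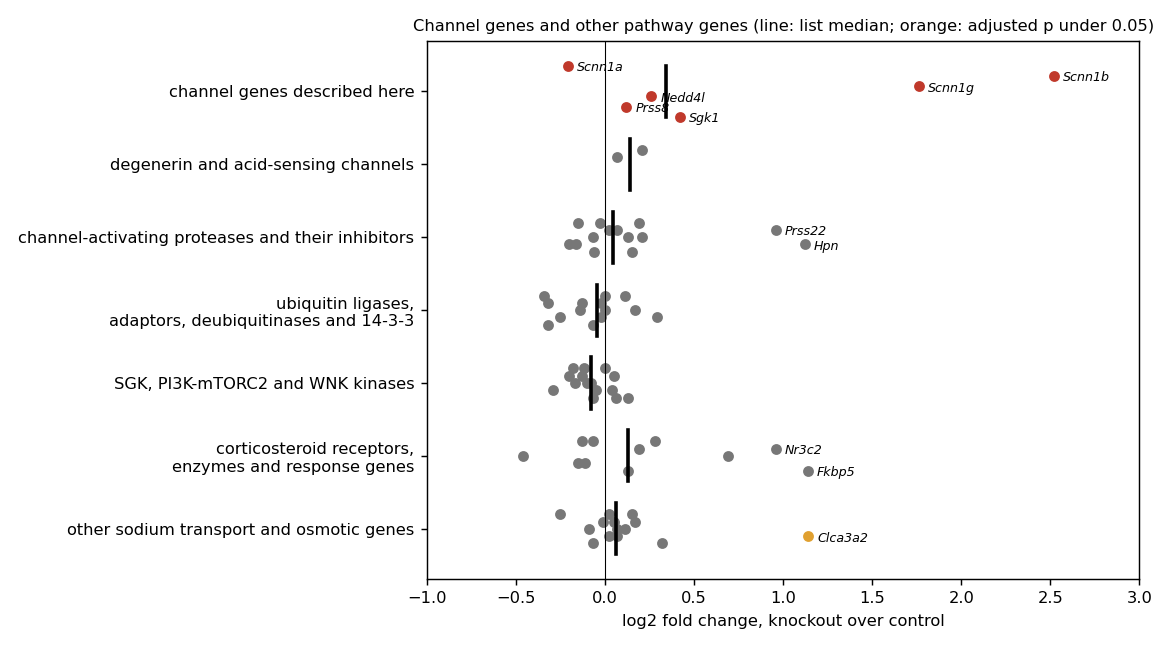
Log2 fold change, knockout over control (horizontal axis), of the 6 sodium channel genes (red) and of each tested gene in 6 lists of other channel control genes (grey, or orange where the edgeR adjusted p was under 0.05); vertical lines are list medians. Scnn1b and Scnn1g lie to the right of every gene in the 6 lists, and Clca3a2 is the only orange point.

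Over the 6 libraries, the genes whose log2 CPM followed Scnn1b most closely, among 9677 other genes with a mean of at least 10 CPM, were Ankzf1, Cgnl1 and Smo (Pearson r 0.998, 0.998 and 0.997). Ankzf1 differed little, at 32.9 ± 0.238 and 28.8 ± 0.168 CPM in the knockout and control, a log2 fold change of 0.19 (edgeR adjusted p 0.177, SE 0.06). Smo, the signal transducer of the Hedgehog pathway, had 159 ± 4.17 and 118 ± 0.696 CPM, and Cgnl1, a junction protein, had 82.9 ± 8.63 and 33.2 ± 2.45 CPM (n = 3 each, SD). For Scnn1g they were Rai14, Sox13 and Igfbp4 (r 0.996, 0.995 and 0.994), and for Scnn1a, Med10, Camk2d and Skp1a (r 0.997, 0.995 and 0.995). With 6 libraries in 2 groups these values mostly carry the group difference, and 316, 298 and 275 genes had r above 0.9 with Scnn1b, Scnn1g and Scnn1a.

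Marker lists of cell types and states were summed in each library. Hair follicle stem cell markers summed to 432 to 514 CPM in the knockout and 314 to 326 CPM in the control, with 4 of 6 genes positive and Nfatc1 past the threshold (edgeR adjusted p 0.00771). Nfatc1 and Sox9 were the largest in this sum, with means of 208 and 149 CPM in the knockout and 108 and 105 CPM in the control. Cd34 and Tbx1 had log2 fold changes of -0.29 and -0.03. With the tag pairs as a block, 4 of these 6 genes passed, all higher, as did 2 of 10 differentiated keratinocyte markers, both lower, and the immune cell marker Cd74, higher. In that fit 4.56% of all genes tested passed. All 10 differentiated keratinocyte markers had negative log2 fold changes (median -0.266), with 0 of them past the threshold in edgeR. At an unadjusted edgeR p under 0.05 there were 4, all lower, where 9.1% of all genes tested were lower and under that value. The sums of these markers overlapped, at 20811 to 27856 and 23423 to 37649 CPM. Fibroblast markers summed to 129 to 142 and 37.4 to 79.1 CPM, with Dcn making up 86.7% to 89.1% of the sum in the knockout and 51.3% to 73.3% in the control, and without Dcn to 14.97 to 19.0 and 12.5 to 38.6 CPM. Dcn also passed the threshold, with a log2 fold change of 1.90 (edgeR adjusted p 0.00782, SE 0.21), and it passed with the tag pairs as a block. Of the 4 other fibroblast markers tested, 0 passed in edgeR, with 1 positive and 3 negative. Sebaceous gland markers overlapped, at 5960 to 6989 and 6310 to 7434 CPM, as did basal keratinocyte markers, at 29179 to 33215 and 25769 to 30700 CPM. Melanocyte markers summed to 63.0 to 100.4 and 42.1 to 68.0 CPM, immune cell markers to 39.9 to 96.3 and 19.7 to 78.7 CPM, endothelial markers to 2.02 to 3.19 and 2.86 to 5.79 CPM, and Merkel cell markers to 1.73 to 2.25 and 1.71 to 2.94 CPM, all overlapping between the groups. All 5 melanocyte and all 6 immune cell markers had positive log2 fold changes, with medians of 0.545 and 0.609. No overlap between the groups was seen for 2 of 5 melanocyte and 0 of 6 immune cell markers, against 25.6% of all genes tested. The same held for 5 of 10 differentiated keratinocyte markers, all lower. It also held for 3 of 6 hair follicle stem cell and 2 of 6 basal keratinocyte markers, all higher, and for 1 marker each of the sebaceous gland, fibroblast and endothelial lists. No marker was at 0 in any library, though Lum, Emcn, Krt20, Atoh1 and Isl1 had at most 16 counts. The part of any of these in the subunit differences was not tested.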

How the data were processed

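Polyadenylated RNA of 6 libraries, 3 per group, was sequenced from stranded libraries. Per the submitters' processing notes, bcl2fastq 2.20, cutadapt 1.18, STAR 2.7.0f and Partek were used with build mm10; their roles, the annotation and the use of strand in counting are not given in the sources used here. The authors deposited estimated counts per gene, not all whole, and a normalized signal. Each deposited signal value was the estimated count times a constant of its library plus 0.001, and these constants were 0.998 to 1.003 times those of TMM-scaled CPM.

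Rounded estimated counts were filtered with filterByExpr and fitted in edgeR 4.0.16 (glmQLFit, glmQLFTest) with TMM factors and genotype as the only term; it was planned for raw counts and kept for these. The threshold was a Benjamini-Hochberg adjusted p of 0.05 across the table. SE is the absolute log2 fold change divided by the square root of F. Since F uses dispersions moderated across genes, an SE can differ from the spread of a gene's own libraries. The fit was tested on simulated data. With 3 libraries against 3 the smallest p of an exact permutation test is 0.1, so the fit is used. Totals and counts cover counting error only, since no molecular identifiers are mentioned; 3 counts equal 0.117 to 0.173 CPM. Lengths and positions came from GENCODE M21 (GRCm38). Likeness used log2 of CPM plus 1.

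Members and lists were chosen with earlier results of these data known. Named were the members, a fixed set of regulators (1 of which is not reported here), each pathway gene past the threshold and the 3 genes most like each subunit. Alternatives were upper-quartile and RLE factors, a filter at a mean of 1 CPM and none, limma-voom, DESeq2 1.42.0 and limma on log2 of the deposited signal plus 1 (limma 3.58.1), a sex term read from Xist and Y-linked genes, another gene length, and leaving out each library. A block for the 3 pairs of libraries with adjacent tags was added after the data were seen. Over 9684 genes, deviations of log2 CPM from the group means correlated at 0.306, 0.510 and 0.443 within these pairs and at -0.406 to -0.0181 between other libraries of opposite groups. Such deviations cancel within a group, so positive values within the pairs make the others negative in part by construction.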

Additional observations from a re-analysis of the deposited data

How the results depend on the processing

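All 6 members kept their direction in each of the 15 alternatives that refitted the data. Limma on the authors' normalized values, whose added 1 lowers the change of low genes by construction, gave log2 fold changes of 2.13 for Scnn1b, 1.45 for Scnn1g and 0.24 for Nedd4l, and upper-quartile factors gave 0.27 for Nedd4l. Without 1 library in turn, Scnn1b ranged from 2.40 to 2.64, Scnn1g from 1.66 to 1.88, Scnn1a from -0.25 to -0.18, Sgk1 from 0.32 to 0.53, Nedd4l from 0.25 to 0.26 and Prss8 from 0.02 to 0.18. Sgk1 was past the threshold with DESeq2, with the sex term and with the block only. Since the members were chosen with this contrast in view, nothing is read from these calls. With the longest annotated transcript as the length, the control shares were 92.2% for Scnn1a and 3.76% for Scnn1g. The 247 genes past the threshold became 879 with DESeq2, 409 with the sex term and 704 with the replicate block on adjacent tags (all 247 among them). They became 69 to 121 without 1 library, where each fit has fewer samples and so less power. How much of that drop this explains was not tested. DESeq2 raised the pathway count from 1 to 4 (Clca3a2, Nr3c2, Uchl3 and Wwp1), the last 2 of which were lower; the block raised it to 3 (Clca3a2, Fkbp5 and Wwp1); the cause was not tested. Clca3a2 passed in all 15, with adjusted p from 1.45e-20 to 0.0263. The labels' replicate numbers could not be tied to columns, so the paired fit rests on tag numbers; beyond the calls given with it in the results, it changed none among the genes named. Depth limits Hsd11b2 and Asic3, which had too few counts to test.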
